A study of Mus musculus with 6 samples.

Results

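The genes of ApoB mRNA editing were followed in RNA from mouse small intestinal mucosa. They were 7 of the 38561 genes counted: Apobec1, the deaminase; A1cf and Rbm47, its RNA-binding cofactors; Apob, the edited transcript; and Syncrip, Hnrnpab and Celf2, further binders of the enzyme or of the RNA. They were a list of names drawn up with earlier results of these data known, and all 7 were found and passed the expression filter. Sequencing covered 6 pools of polyA RNA on an Illumina HiSeq2000, 3 of genotype Rbm47_IKO and 3 labelled wt, each pool holding 3 mice of both sexes, aged 8 to 12 weeks and of strain C57BL/6J. These are the labels' figures, and the methods of the study give somewhat wider ranges of mice per pool and of age. In Rbm47-IKO mice a constitutive Cre under the villin promoter recombines floxed Rbm47. Villin marks epithelial cells, so the deletion is meant for the gut lining, some urogenital cells also express this Cre, and muscle, immune and stromal cells of the mucosa keep the floxed gene. The labels call the controls wt, whereas the methods of the study describe its controls as floxed Rbm47 fl/fl mice. Total counts were 31560320 to 38951830 per pool.

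ApoB mRNA editing is a C-to-U change made in the nucleus of enterocytes. It turns a glutamine codon of the long transcript into a stop codon, so that the intestine makes the short ApoB-48 of chylomicrons, while the unedited transcript gives ApoB-100. APOBEC1 is the catalytic subunit and needs an RNA-binding partner, which A1CF or RBM47 can supply. The partner binds near an 11-base stretch just 3′ of the edited base, called the mooring sequence. Gene counts hold edited and unedited Apob transcripts together, so the values here are transcript levels and not editing rates.

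The site is shown because it is what these factors act on. In the deposited annotation (GRCm38), Apob lies on chromosome 12 (7977648 to 8016835, plus strand). In GENCODE M21 the edited base is base 6666 of the 13934-base transcript Apob-202 and base 6535 of its coding sequence. It is at position 8008054, within exon 26 of 29, a coding exon of 7467 bases (8005736 to 8013202). The codon there, number 2179 of 4505, reads CAA, and editing makes it TAA, which leaves 2178 residues, 48.3% of the protein. The window of 75 bases at chr12:8008024-8008098 (plus strand) has 30.7% GC, with the codon and the mooring sequence in capitals.
Apob edited site: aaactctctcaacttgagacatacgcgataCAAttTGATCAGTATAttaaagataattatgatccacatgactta

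The letters CAANNTGATCAG, the edited codon followed by the start of the mooring sequence, were searched on the mRNA strand of the longest coding transcript of each gene. They were in 87 of 21901 genes (0.397%). Apob was the only member of the 7 with a match. The shorter TGATCAG, which the longer motif contains, was in 3756 genes (17.1%) and in 3 members, namely Apob, Rbm47 and Celf2. A match is a description of the letters and not of a site of editing.

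Rbm47 was not lower in the pools that carry the knockout label. Its level in CPM (counts scaled to a common library size, here after TMM normalization) was 602.7, 624.6 and 619.8 in libraries labelled Rbm47-IKO against 459.8, 449.9 and 472.1 in the controls. Every library labelled Rbm47-IKO was above every control, by 1.34 times on the means of 615.7 ± 11.6 (SD, n = 3 pools) and 460.6 ± 11.1 (SD, n = 3). The log2 fold change of 0.42 (standard error 0.10) had an adjusted p of 0.0751 in the quasi-likelihood test of edgeR, with Benjamini-Hochberg adjustment over all 16425 genes tested, and did not pass 0.05. It passed with DESeq2 (adjusted p = 0.00105), with library size as the only scaling and with a stricter expression filter. It did not pass in the other 9 of 12 alternative fits, limma-voom among them (adjusted p = 0.0736). Nor did it pass in any of the 6 fits with a pool left out (edgeR adjusted p = 0.117 to 0.356). The whole-gene level thus did not follow the label, and these pools are named only as the libraries labelled Rbm47-IKO. Of the 14 marker lists described below, the goblet and enteroendocrine sums did separate the groups. Of all single genes tested, 11.7% were higher and 11.6% were lower without overlap. EdgeR called 0 of the goblet genes and 0 of the enteroendocrine genes. What these values say of the labels was not tested.

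The count covers all exons of Rbm47 (chromosome 5, 66016549 to 66173117, minus strand, 6859 bases of merged exon) and does not separate the floxed part, whose position is not given in the sources used here, so that it cannot by itself check the label. The study's own quantitative PCR assay for mouse Rbm47 is shown because it reads only a short stretch of this count.
Rbm47 forward primer: caagaaccgcggctatgc
Rbm47 reverse primer: ggctcgcttggcctcat
The primers bound a product of 58 bases at chr5:66026878-66026935 (minus strand), in exon 6 of 9 of a 5211-base Rbm47 transcript, within coding sequence, and 9 of the 14 annotated Rbm47 transcripts hold it. Whether that exon is part of the deletion is not given in the sources used here.

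A1cf, the other cofactor of APOBEC1, was the only member that passed the test, and it fell. Its level was 46.0, 48.5 and 49.7 CPM in libraries labelled Rbm47-IKO against 128.3, 92.0 and 109.8 CPM in the controls, so that no pools overlapped. The means were 48.0 ± 1.90 (SD, n = 3) and 110.0 ± 18.2 (SD, n = 3), 2.29 times higher in controls. On the log2 scale it fell by 1.20 (standard error 0.14), with an edgeR adjusted p of 0.00978. Among all genes tested 2.70% were called in either direction and 1.25% were called lower, against 1 of the 7 members. A1cf (ENSMUSG00000052595) lies on chromosome 19 (31868761 to 31949406, plus strand) with 3828 bases of merged exon. It was lower in each of the 6 fits that left out a pool, with log2 fold changes of -1.31 to -1.07, but it passed in 3 of them. Without libraries labelled Rbm47-IKO 1 or 2, or without control 3, the edgeR adjusted p was 0.0653, 0.0834 and 0.0523.

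Each pool held mice of both sexes, and Y-linked transcripts varied among the pools. With the summed level of 4 Y-linked genes as a covariate, A1cf still had the lower level, at -1.11 on the log2 scale, but did not pass (edgeR adjusted p = 0.0527). That sum was 138.6, 53.0 and 143.7 CPM in libraries labelled Rbm47-IKO against 215.4, 87.9 and 220.3 CPM in the controls, with overlapping ranges. At each pool number it was lower in the library labelled Rbm47-IKO than in the control. The pool numbers were not taken to pair the samples. The part of the Y-linked sum in the result was not tested further.

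Apob, the edited transcript and the structural protein of chylomicrons, took the second most counts of all genes tested. CPM favours long transcripts such as Apob, and by mean CPM per kilobase it was number 40 of the 16425 genes. It measured 10841, 10430 and 9864 CPM in libraries labelled Rbm47-IKO against 19714, 14903 and 22119 CPM in the controls. The lowest control was above the highest library labelled Rbm47-IKO. As a share of all counts, Apob took 1.03% ± 0.029 (SD, n = 3) against 1.89% ± 0.322 (SD, n = 3). The log2 fold change of -0.87 (standard error 0.19) had an edgeR adjusted p of 0.0583 and missed the threshold. It passed with DESeq2 (adjusted p = 1.78e-05), limma-voom (adjusted p = 0.0421), upper quartile or library size scaling, a robust fit and a stricter filter, and without control 2 (-1.01, edgeR adjusted p = 0.0321). It did not pass in the other 5 fits with a pool left out (edgeR adjusted p = 0.116 to 0.279), with the Y-linked covariate (0.249), with the smooth muscle covariate (0.0545), with the pool number as a block (0.207), with RLE factors (0.0707) or with no filter (0.0837). Its log2 fold change was -1.01 to -0.73 over all these fits.

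**Figure D1:**
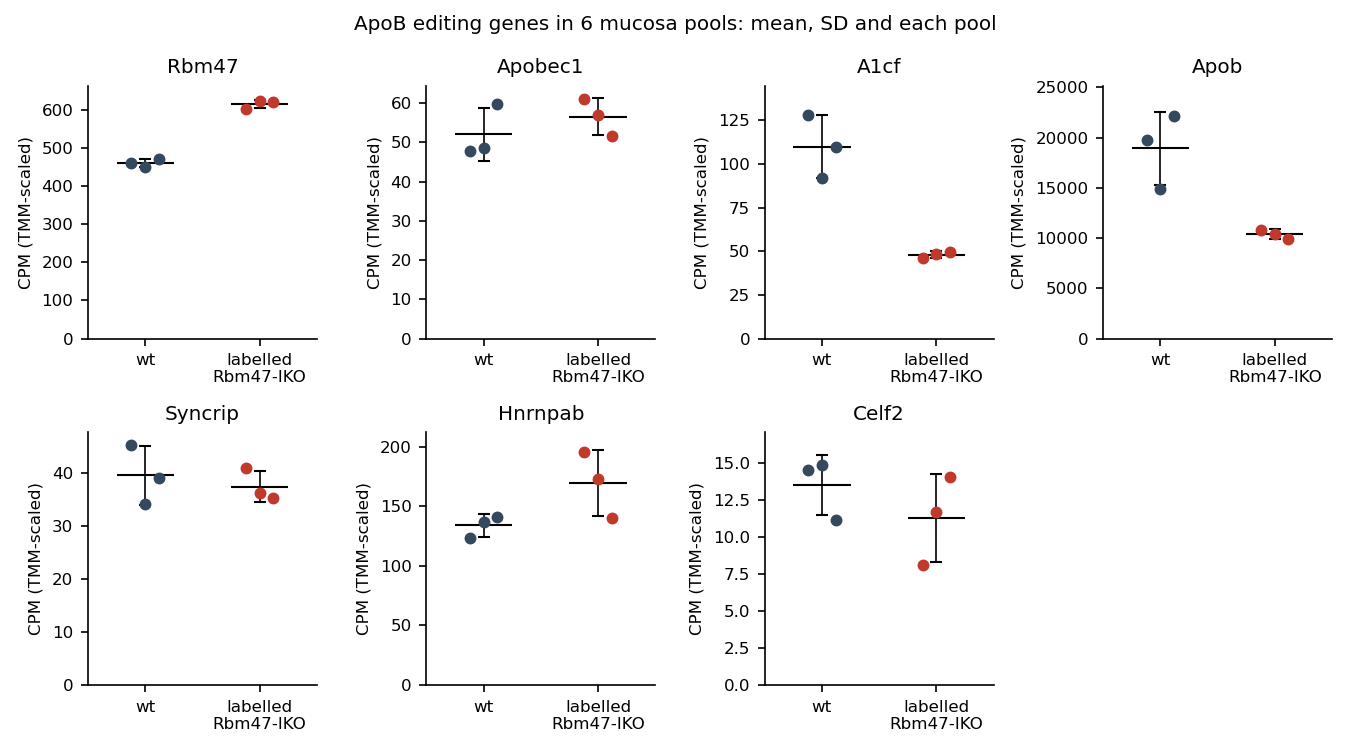
TMM-scaled CPM of the 7 genes on linear axes from 0, with each point a pool, the horizontal line the mean and the bars the SD of 3 pools. The groups do not overlap for Rbm47 (higher in libraries labelled Rbm47-IKO), A1cf and Apob (both lower), and they overlap for the other 4 genes.

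Pools of both groups thus did not overlap for 3 of the 7 members, 1 higher and 2 lower. Over all genes tested 11.7% were higher and 11.6% were lower without overlap. In a bulk RNA sample, fewer cells of a type and less RNA per cell cannot be told apart.

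Apobec1, the enzyme itself (ENSMUSG00000040613, chromosome 6, 122577792 to 122602444, minus strand), overlapped between the groups. It measured 61.0, 56.9 and 51.6 CPM in libraries labelled Rbm47-IKO against 47.9, 48.5 and 59.7 CPM in the controls. The lowest library labelled Rbm47-IKO was below the highest control, and the log2 fold change of 0.12 (standard error 0.12) did not pass (edgeR adjusted p = 0.73). Leaving out each pool in turn moved it between 0.06 and 0.23, and 0 of those 6 fits passed.

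The 3 other binders did not pass the test either. Hnrnpab encodes an hnRNP that binds APOBEC1, and it measured 195.6, 172.6 and 140.5 CPM in libraries labelled Rbm47-IKO against 123.5, 137.1 and 141.3 CPM in controls. The third library labelled Rbm47-IKO lay just below control 3, and the log2 difference was 0.34 with a standard error of 0.14 (edgeR adjusted p = 0.278). On chromosome 11, 809 of its 2782 exonic bases (29.1%) are shared with Phykpl on the opposite strand. Whether the counting used strand is not given in the sources used here, so reads from those bases cannot be assigned with certainty. Phykpl itself had 781 to 999 counts per pool, against 4201 to 6773 for Hnrnpab.

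Syncrip encodes a relative of A1CF that lowers editing in vitro. It measured 40.9, 36.2 and 35.3 CPM in libraries labelled Rbm47-IKO against 45.4, 34.3 and 39.0 CPM in controls, fully overlapping. The log2 difference was -0.08 with a standard error of 0.13 (edgeR adjusted p = 0.852), and the sign turned with the smooth muscle or Y-linked covariate, with the GC content offset and without control 1. Celf2 (CUGBP2) binds Apob RNA and also lowers editing in vitro. It was the least abundant member, at 8.15, 11.7 and 14.1 CPM against 14.6, 14.9 and 11.2 CPM in controls. The groups overlapped, and the log2 difference was -0.26 with a standard error of 0.22 (edgeR adjusted p = 0.646). Leaving out each pool in turn moved it between -0.447 and -0.0745.

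**Figure D2:**
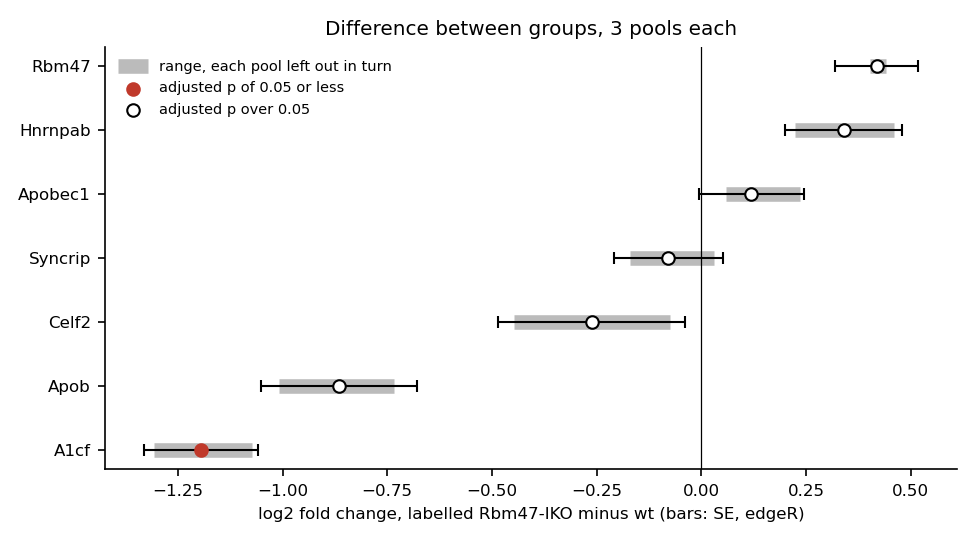
Log2 fold change (libraries labelled Rbm47-IKO minus wt) of the 7 genes from edgeR, with the standard error as bars and, in grey, the range over 6 fits with a pool left out. A1cf alone has an adjusted p of 0.05 or less, at -1.20, and the grey range of Syncrip spans 0.

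Levels of different genes were compared per kilobase of merged exon. On this scale the order in every control pool was Apob, Rbm47, Hnrnpab, A1cf, Apobec1, Syncrip and Celf2. Apob measured 1415, 1070 and 1587 CPM per kilobase in the controls, far above Rbm47 at 67.0, 65.6 and 68.8. Hnrnpab followed with 44.4 to 50.8 CPM per kilobase. A1cf had 24.0 to 33.5 and Apobec1 20.01 to 24.97 CPM per kilobase, so these neighbours overlapped across pools although A1cf was the higher in each pool. Syncrip (4.42 to 5.86) and Celf2 (0.437 to 0.583) did not overlap with each other or with Apobec1.

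In all 3 libraries labelled Rbm47-IKO, A1cf and Apobec1 stood in the reverse order. Apobec1 measured 21.6 to 25.5 CPM per kilobase there and A1cf 12.0 to 13.0, without overlap. The other members kept their places, with Apob at 707.9 to 778.0, Rbm47 at 87.9 to 91.1, Hnrnpab at 50.5 to 70.3, Syncrip at 4.57 to 5.28 and Celf2 at 0.318 to 0.55 CPM per kilobase.

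**Figure D3:**
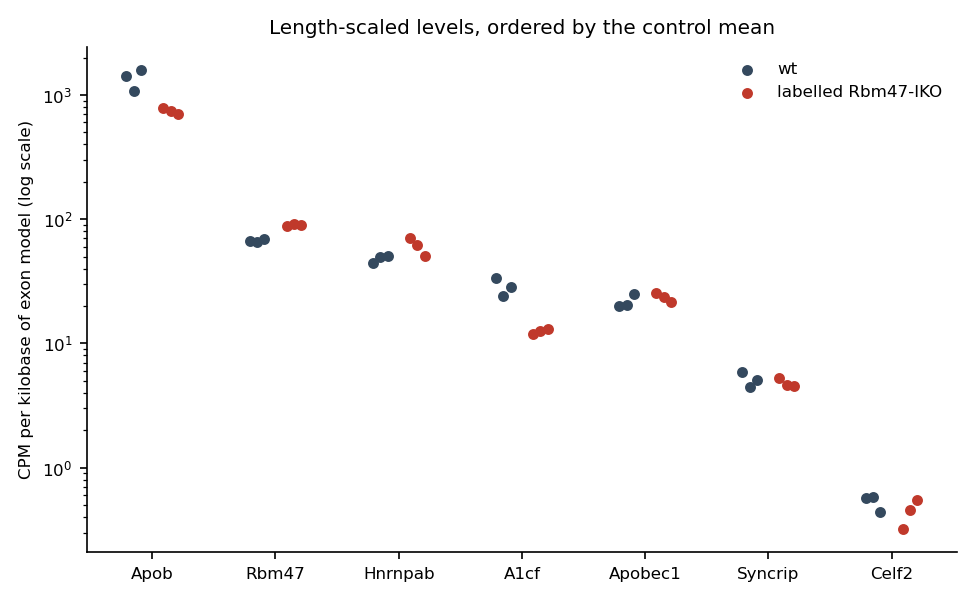
TMM-scaled CPM per kilobase of merged exon on a log axis, each point a pool, genes ordered by their mean in controls. Apob is highest in both groups, and A1cf lies below Apobec1 in libraries labelled Rbm47-IKO (12.0 to 13.0 against 21.6 to 25.5).

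Ratios within a pool need no scaling between libraries. Rbm47 exceeded A1cf per kilobase by 7.32, 7.20 and 6.96 times in libraries labelled Rbm47-IKO and by 2.0, 2.73 and 2.40 times in the controls. For A1cf relative to Rbm47 the log2 difference was -1.60. A1cf per Apobec1 was 0.471, 0.532 and 0.601 against 1.675, 1.185 and 1.148, a log2 difference of -1.31. Groups were fully separate in both ratios. Rbm47 per Apobec1 was 3.45, 3.83 and 4.19 against 3.35, 3.24 and 2.76, a log2 difference of 0.30, with the closest pools 3.45 and 3.35.

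The enzyme was also compared with its target. Apob exceeded Apobec1 per kilobase by 30.5, 31.4 and 32.8 times in libraries labelled Rbm47-IKO and by 70.7, 52.8 and 63.6 times in the controls, so that there was less target per enzyme transcript in the former. A1cf exceeded Syncrip by 2.27, 2.71 and 2.84 times against 5.72, 5.43 and 5.69 times. Celf2 per A1cf was 0.035 ± 0.0080 (SD, n = 3) against 0.0188 ± 0.0048 (SD, n = 3), and the groups again did not overlap. Hnrnpab per Apobec1 was 2.57 ± 0.212 (SD, n = 3) against 2.23 ± 0.198 (SD, n = 3) and overlapped. The smallest p that a two-sided exact permutation test allows with 3 pools per group is 0.1. The first 6 ratios gave that p of 0.1 (0.117 after Benjamini-Hochberg adjustment over the 7 ratios), and Hnrnpab per Apobec1 gave 0.2 (exact permutation test). Several of these ratios share A1cf or Apobec1 and are not separate results.

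**Figure D4:**
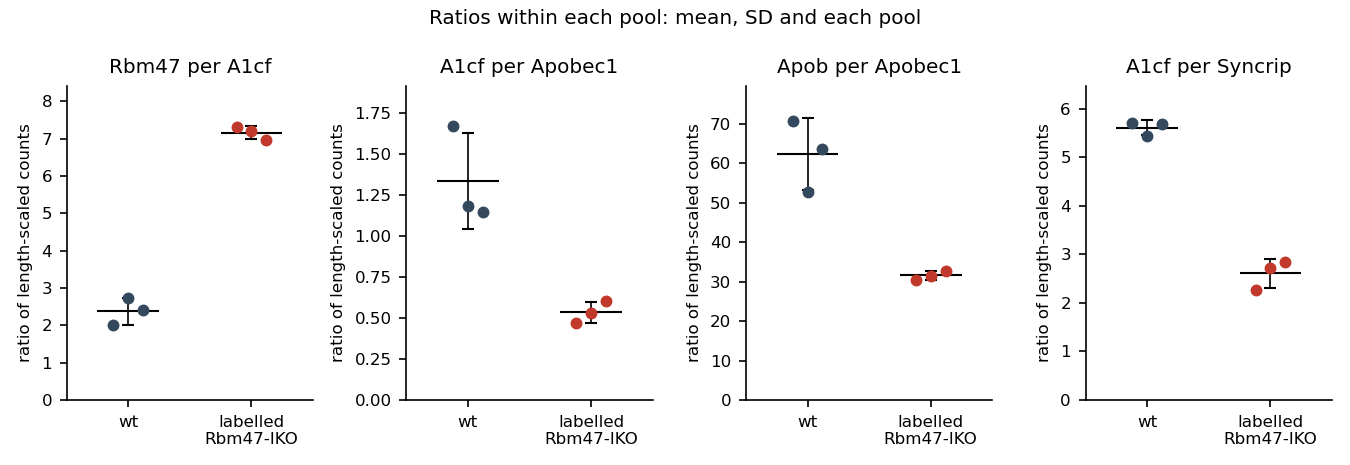
Ratios of length-scaled counts of 2 genes within each pool on linear axes from 0, with points for pools, lines for means and bars for the SD of 3 pools. The groups are separate in all 4 panels, and Rbm47 per A1cf is near 7 in libraries labelled Rbm47-IKO and between 2.0 and 2.73 in controls.

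Enterocytes are the cells of the mucosa that transcribe Apob, so the members were also set against 10 enterocyte markers. Other cells, such as macrophages for Apobec1, can add to some members, and these values are not levels per cell. All 10 were present, with a summed level of 51049 to 57179 CPM in libraries labelled Rbm47-IKO and 52054 to 54624 CPM in controls. By edgeR 0 of the 10 passed (2.70% of all genes did) and 4 had an unadjusted p under 0.05 (16.8%). DESeq2 called 3 (8.39% of all genes) and limma-voom called 0 (2.62%). The steady sum held moves in both directions. Anpep and Fabp2 exceeded every control in each library labelled Rbm47-IKO, at 0.52 and 0.51 on the log2 scale, and Apoa4 and Sis were lower in every one, at -1.01 and -0.39. Per 1000 counts of these markers, A1cf had 0.9, 0.847 and 0.936 counts in libraries labelled Rbm47-IKO against 2.46, 1.70 and 2.01 in controls, a log2 difference of -1.19. Apob had 212.4, 182.4 and 185.8 against 378.7, 275.3 and 404.9, a log2 difference of -0.85. Rbm47 had 11.8, 10.9 and 11.7 against 8.83, 8.31 and 8.64, a log2 difference of 0.42. These differences were of the same size as those on the CPM scale.

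On the same scale Hnrnpab had 3.83, 3.02 and 2.65 counts against 2.37, 2.53 and 2.59, and here the groups did not overlap. The exact permutation p was 0.1 for Rbm47, A1cf, Apob and Hnrnpab, the smallest possible, and 0.175 after adjustment over the 7 members. Apobec1, Syncrip and Celf2 overlapped between groups, with exact permutation p of 0.5, 0.6 and 0.2. With any 1 of the 10 markers taken out of the sum the differences of 6 members kept their sign, and that of Syncrip turned without Anpep.

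Markers of other cells moved less evenly. The summed level of 6 smooth muscle genes was 360.9, 585.7 and 3302 CPM in libraries labelled Rbm47-IKO against 90.7, 2803 and 313.1 CPM in controls, so that it was high in 1 library labelled Rbm47-IKO and in control 2. With that sum as a covariate A1cf stayed lower and past the threshold. The 5 goblet markers summed to 21928 to 25357 CPM against 16446 to 19184 CPM in controls, higher in every library labelled Rbm47-IKO. The 5 enteroendocrine markers summed to 97.9 to 114.3 CPM against 135.8 to 169.6 CPM. The sums of the other 12 of 14 lists overlapped between groups. Of all single genes tested, 11.7% were higher and 11.6% were lower without overlap. Of the 10 goblet and enteroendocrine genes edgeR called 0 (2.70% of all genes), and 5 had an unadjusted p under 0.05 (16.8%). DESeq2 called 4 (8.39% of all genes) and limma-voom called 0 (2.62%). The part of these cells in the results was not tested. Genes of hepatocytes, which also transcribe Apob and A1cf, summed to at most 7.44 CPM.

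Besides Apob, 17 transcripts known as APOBEC1 editing targets were examined as a list, and all were tested. Of these, 6 fell, 0 rose and 11 did not pass in edgeR, where 1.25% of all genes were called lower. The median log2 fold change was -0.62, against -0.01 over all genes tested, and 10 of the 17 were lower in every library labelled Rbm47-IKO than in every control, as were 11.6% of all genes tested. Cd36, a fatty acid transporter, measured 49.7, 36.5 and 45.8 CPM in libraries labelled Rbm47-IKO against 108.1, 126.4 and 157.9 CPM in controls, and fell by 1.57 on the log2 scale (edgeR adjusted p = 0.0095). Cyp4v3, a fatty acid hydroxylase, measured 623.7, 706.1 and 621.0 CPM against 1066, 1207 and 1388 CPM and fell by 0.91 (edgeR adjusted p = 0.0211). The groups were well apart for both.

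The other 4 that fell were Bche, which encodes butyrylcholinesterase, by 1.24 (edgeR adjusted p = 0.0479); Sh3bgrl by 0.95 (0.0217); Usp25, a ubiquitin protease, by 0.80 (0.0311); and Rnf128, an E3 ubiquitin ligase, by 0.77 (0.0221), all on the log2 scale. Of the 4 targets with the largest mean CPM, a scale not corrected for length, the 3 besides Cyp4v3 did not pass. B2m, the light chain of MHC class I, was at -0.44 on the log2 scale (edgeR adjusted p = 0.221). Clic5, a chloride channel protein, had -0.02 (edgeR adjusted p = 0.965) and App, the amyloid precursor protein, 0.00 (edgeR adjusted p = 0.996). App was the only one of the 17 whose transcript held the letters CAANNTGATCAG, and 4 of them held TGATCAG.

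The count of targets called lower changed with the pools used, as did the count over all genes. It was 0 without the first or the second library labelled Rbm47-IKO and without control 3, where 32, 0 and 11 genes were called in all, and it was 1 without the third library labelled Rbm47-IKO, where 119 were. In the first 3 of these fits 9, 10 and 9 of the 17 targets had an unadjusted p under 0.05, against 11.9%, 10.2% and 13.0% of all genes. The log2 fold changes of the 6 moved less, with a pool left out between -1.70 and -1.41 for Cd36, -1.46 and -1.01 for Bche, -1.06 and -0.82 for Sh3bgrl, -0.998 and -0.80 for Cyp4v3, -0.88 and -0.64 for Usp25, and -0.83 and -0.69 for Rnf128. With the Y-linked covariate 1 target was called lower, of 59 genes called in all. With DESeq2, upper quartile factors or a stricter filter 9 targets were, of 1243, 533 and 788 genes called in all. The transcripts of these targets had a median GC content of 42.4%, against 49.8% over all genes tested. Across 16221 genes, which are not independent replicates, log2 fold change rose with GC content (Spearman's rho 0.271). With an offset for GC content, chosen after the data were seen, 3 targets were called lower (0.706% of all genes were) and their median was -0.44, against 0.00 over all genes, while A1cf had -1.11 (edgeR adjusted p = 0.00951) and Apob -0.75 (edgeR adjusted p = 0.106). The part of GC content was not tested beyond this.

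**Figure D5:**
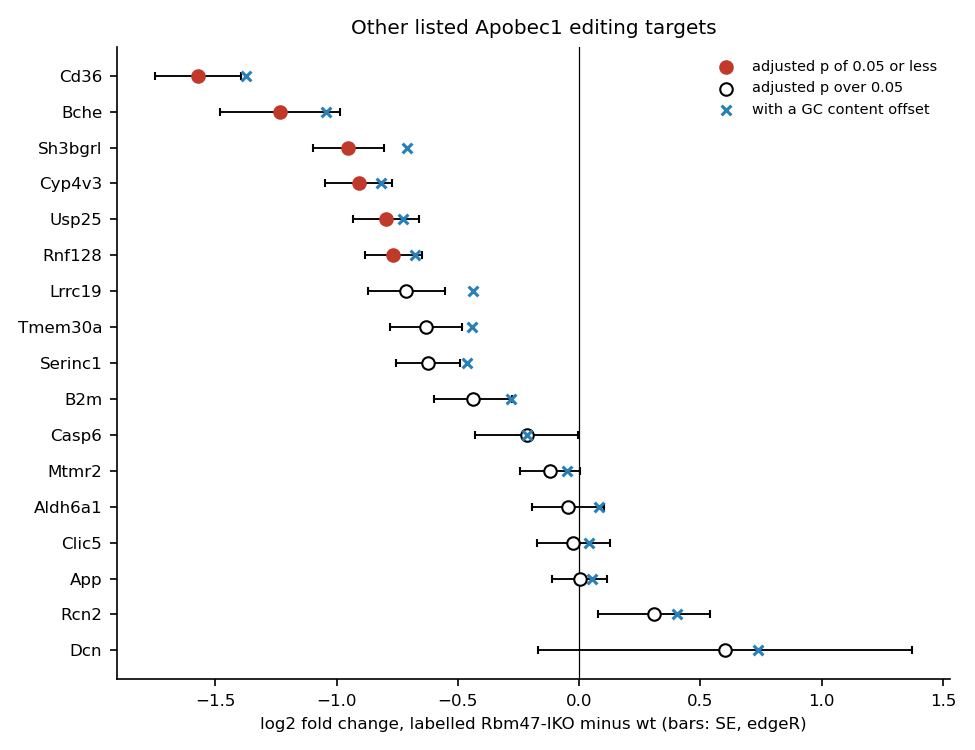
Log2 fold change (libraries labelled Rbm47-IKO minus wt) of the 17 listed editing targets other than Apob, with edgeR standard errors as bars, filled points for an adjusted p of 0.05 or less and crosses for the fit with a GC content offset. The 6 filled points lie between -1.57 and -0.77, and the crosses are closer to 0 for most of the genes below it.

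For the remaining deaminases and complex proteins no call was made by edgeR. Of 14 genes reported here 12 were tested, and 0 were called by edgeR (2.70% of all genes) or limma-voom (2.62%). Only 1 gene had an unadjusted p under 0.05 (16.8% of all genes), and DESeq2 called 1, the same gene (8.39%). That gene was Khsrp, an RNA-binding protein of the editing holoenzyme, with 74.4, 69.7 and 61.9 CPM in libraries labelled Rbm47-IKO against 55.7, 52.2 and 49.4 CPM. It was higher in every library labelled Rbm47-IKO, at 0.39 on the log2 scale (edgeR adjusted p = 0.113, DESeq2 adjusted p = 0.0448). The median log2 fold change of the 12 was 0.01. Dnajb11 and Bag4, which bind APOBEC1, had 0.23 and 0.00, and Hnrnpc had -0.10. Hnrnpr, a close relative of Syncrip, had -0.02.

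Among the deaminases of this list, Adar, which edits adenosines, had the largest mean CPM, a scale not corrected for length. It measured 91.1 to 95.01 CPM against 83.8 to 95.9 CPM. Apobec3 had 11.8 to 15.5 CPM against 14.6 to 22.5 CPM, and the groups overlapped for both genes. Apobec2, Adarb1, Adat1 and Adat2 had a mean of at most 2.52 CPM in controls. Dnd1, which is not a deaminase, had a mean of 0.571 CPM in controls. Adarb2 had a count of 0 in every pool, and Rbm46, a relative of Rbm47 and A1cf, was at most 0.422 CPM and was not tested. Of the 6 CELF genes 0 were called by edgeR, DESeq2 or limma-voom (2.70%, 8.39% and 2.62% of all genes). An unadjusted p under 0.05 was found for 0 of them (16.8% of all genes). Celf1, the most abundant of them, had 157.4 to 177.4 CPM against 156.2 to 173.5 CPM.

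The genes whose log2 CPM followed each member most closely over the 6 pools were found among 13488 genes with a mean of at least 1 CPM. For A1cf they were Insig2, Slc17a4 and Sfxn1 (Pearson's r of 0.996, 0.996 and 0.993), and for Apob Arfgef1, Mgat4a and Slc44a1 (0.999, 0.998 and 0.997). For Rbm47 they were Camta2, Sox13 and Ces2a, all with r of 0.997. Apobec1 was closest to Parp10 (0.990), Syncrip to Eif5b (0.995), Hnrnpab to Rrn3 (0.995) and Celf2 to Acaa2 (0.985). Of the 13488 genes 161 exceeded an r of 0.95 with A1cf, 247 with Apob and 263 with Rbm47. The same was true of 75 genes with Hnrnpab, 52 with Syncrip, 37 with Apobec1 and 16 with Celf2. All these genes share the libraries and the scaling and are given as a description.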

How the data were processed

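Polyadenylated RNA of 6 mucosa pools, 3 per genotype in the labels, was analysed. Per the labels and the submitters' processing notes, the tools were STAR 2.5.1a and featureCounts 1.4.6-p5 of Subread, with GRCm38. The authors deposited raw counts on 38561 Ensembl genes per pool, and CPM and RPKM columns that the authors computed from those counts and that were not used here. Gene positions, merged exons and gene lengths came from the annotation deposited with the counts. Symbols came from GENCODE M21 (36639 genes matched, and 0.369% of counts fell on the others). Transcript sequences and the exons of the Apob site and the primers also came from GENCODE M21. The 2 sources can differ, as for Syncrip with 7742 merged exonic bases against a GENCODE transcript of 9450 bases. Counts were tested with edgeR 4.0.16 (filterByExpr, TMM, quasi-likelihood test, Benjamini-Hochberg adjusted p of 0.05 or less over 16425 genes, of which 443 passed) in R 4.3.3, with DESeq2 1.42.0 and limma 3.58.1 as alternatives. The scripts for this test were also checked on simulated data. Ratios were tested by exact permutation in scipy 1.17.1. No pools were alike within sampling noise (chi-square per degree of freedom of 28.4 or more), so 3 pools were counted per group. P-values measure the spread between pools, and whether mice share litters is not given in the sources used here. Reads are not independent molecules, and among the 7 members depth limits the precision of Celf2 most, at 282 to 566 counts per pool.

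The members and lists were chosen with earlier results of these data known. Named were the members, the other editing and complex genes, the CELF family, and listed targets that passed or had the 4 largest mean CPM. Also named were the 3 genes most like A1cf, Apob and Rbm47, and the 1 gene most like each other member. Phykpl and the enterocyte markers named beyond their list were singled out after their values were seen. Alternatives were other tools, scalings, filters, covariates, a pool number block and leaving out each pool. The GC content offset (lowess span 0.3) was added after the data were seen. Besides the 14 other editing genes counted here, 1 more gene of that list is not reported here.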

Additional observations from a re-analysis of the deposited data

How the results depend on the processing

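A1cf kept its lower level in the 12 other fits and in the 6 with a pool left out, and lost the call with the Y-linked covariate (-1.11, edgeR adjusted p = 0.0527). Leaving out pools gave log2 fold changes of -1.31 to -1.07 for A1cf (edgeR adjusted p = 0.00927 to 0.0834) and of -1.01 to -0.73 for Apob, which passed without control 2. Apob passed with DESeq2 (-0.87), upper quartile factors (-0.90), library size only (-0.87), at least 5 CPM in 3 pools (-0.87), limma-voom (-0.85) and a robust fit (-0.87). Rbm47 passed with DESeq2 (0.42, adjusted p = 0.00105), library size only (0.41, edgeR adjusted p = 0.0473) and at least 5 CPM in 3 pools (0.41, edgeR adjusted p = 0.0374). Rbm47 did not pass in the other 9 of 12 alternatives or in the 6 fits with a pool left out (edgeR adjusted p = 0.117 to 0.356). Syncrip turned sign at values near 0 with the smooth muscle covariate (0.0026), the Y-linked covariate (0.014) and the GC content offset (0.16), and its leave-one-out range was -0.17 to 0.0305; per enterocyte marker it was 0.0421 without Anpep and -0.18 to 0.0495 with a pool left out. No other member or ratio turned sign.

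The number of genes called, 443, was 1243 with DESeq2, 788 with at least 5 CPM in 3 pools, 711 with the smooth muscle covariate, 270 with the GC content offset, 59 with the Y-linked covariate and 0 to 431 with a pool left out. It was 0 without the second library labelled Rbm47-IKO, where 1729 genes had an unadjusted p under 0.05. The 6 targets called lower became 9 with DESeq2, upper quartile factors and at least 5 CPM in 3 pools, 8 with library size only and with the smooth muscle covariate, 7 with no filter and with a robust fit, 5 with RLE factors and with limma-voom, 3 with the GC content offset, 1 with the Y-linked covariate and 0 to 6 with a pool left out. The cause of these shifts was not tested. The pool numbers were not taken to pair the samples. Deviations of pools with the same number correlated at 0.408, -0.0026 and -0.277 across genes, and not every pool was closest to its own number. The Y-linked sum was nevertheless lowest in pool 2 of both groups. With the pool number as a block 100 genes and 2 targets were called, A1cf had -1.18 (edgeR adjusted p = 0.0464), Apob -0.85 (0.207) and Rbm47 0.42 (0.206), and the log2 ratio differences were as without it (paired exact permutation p = 0.25, the smallest possible).

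Limits: with 3 pools per group single values cannot reach a permutation p below 0.1, editing itself is not read from gene counts, and the position of the floxed part of Rbm47 is not given in the sources used here.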
